A study of Mus musculus with 8 samples.

Results

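The DNA replication and S-phase genes are a set of 50 genes, picked by gene symbol, whose products license and fire replication origins, synthesize DNA, supply nucleotides, switch cells from G1 to S phase, copy chromatin marks behind the fork or protect it. On these arrays 49 of the 50 could be measured, out of 18193 genes in all. *Chaf1a* has no probe set here that names it alone. Each gene was read from 1 probe set naming only that gene, the brightest over all 8 arrays where there were several. The values compared are log2 intensities, on which a difference of 1 is a doubling.

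Replication is prepared in G1, when the origin recognition complex, Cdc6 and Cdt1 load the Mcm helicase, and begins when Cdc7 and cyclin E-Cdk activity recruit Cdc45, GINS and the polymerases. E2F transcription factors drive most of these genes as a cell enters S phase, so their transcripts are abundant in dividing lymphocytes and scarce in resting ones. After DNA damage, p53 induces *Cdkn1a*, which encodes the Cdk inhibitor p21.

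The cells were CD8+CD44+CD62L- T cells, a phenotype of antigen-experienced T cells, sorted from MC38 tumors, a transplanted mouse colon adenocarcinoma, or from lymph nodes (LN) of the same kind of mice. All mice were C57BL/6 females, 6 to 8 weeks old at tumor injection, and all groups, LN included, came from tumor-bearing animals. From each tissue there were 2 arrays without irradiation (IR) and 2 with it, which makes 4 groups. IR was a whole-body dose of 5 Gy given 5 h before the tissues were taken. Each array held RNA of cells pooled from 4 mice, so no value belongs to 1 animal, and the LN pools mixed draining with other nodes. The series comprised 2 independent experiments of 4 arrays each, and the labels do not say which experiment a replicate number stands for. Tumors were digested with enzymes and LN were disrupted mechanically, so tissue and dissociation cannot be told apart.

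The sort and the treatment were visible on the arrays. *Cd8a*, a chain of the CD8 coreceptor, lay between 12.09 and 12.67 on all 8 arrays. *Cdkn1a* stood at 7.91 and 7.89 in LN without IR, 11.96 and 11.54 in LN with IR, 9.60 and 10.45 in tumor without IR and 11.93 and 12.02 in tumor with IR. Both LN arrays with IR were therefore far above both LN arrays without it. Other cells left signal as well. The mean of 11 macrophage genes was 9.09 to 11.23 on the tumor arrays and 5.92 to 6.51 on the LN arrays, and *Lyz2*, encoding lysozyme, was the brightest of them. The mean of 10 fibroblast genes was 8.20 to 8.75 in tumor and 5.69 to 5.99 in LN, with *Col3a1*, a fibrillar collagen, the brightest, and the mean of 8 carcinoma genes was 6.74 to 7.04 and 6.10 to 6.46, with *Cdh1*, encoding E-cadherin, the brightest. The carcinoma genes were divided. Without IR, 3 of the 8 were higher in tumor than in LN and 5 lower (median -0.17). With IR, 7 were higher and 1 lower (median 0.16). The mean of 9 B cell genes was 7.44 to 8.15 in LN and 6.31 to 6.54 in tumor, with *Ighm*, the IgM heavy chain, the brightest. In such bulk samples, fewer cells of a type and less RNA per cell cannot be told apart.

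One array stood apart. LN with IR replicate 2 correlated with its partner at 0.966 over all genes, against 0.982 for the LN pair without IR, 0.993 for the tumor pair without IR and 0.992 for the tumor pair with IR. Its spread of log2 values (SD 2.10) was below that of the other 7 arrays (2.13 to 2.25). The 4689 genes outside the set with a mean of at least 9 differed from replicate 1 by a median of -0.33 on it, and 10.6% of them were lower by at least 1. Its *Cdkn1a* was 11.54 and its *Cd8a* 12.27. In each comparison that uses this array, the median of the set is given with and without it, as is the number of genes that passed. Most values of single genes and of other gene lists are given with it only.

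The LN replicates disagreed on the replication genes. On each array, the mean over the 49 genes was 10.00 and 9.56 in LN without IR, 9.57 and 8.59 in LN with IR, 9.51 and 9.60 in tumor without IR, and 9.45 and 9.50 in tumor with IR. The 4 tumor arrays thus lay within 0.15 of each other, while the LN arrays were spread over 1.41. LN with IR replicate 2 held the lowest of the 8 values for 42 of the 49 genes, against 27.5% of all genes, and LN without IR replicate 1 the highest for 40, against 13.5% of all genes. The exceptions to the first count were *Gins2*, *Orc1*, *Cdc45*, *Tyms*, *Rfc4*, *Pole2* and *Ccne2*, whose lowest values were on other arrays.

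**Figure D1:**
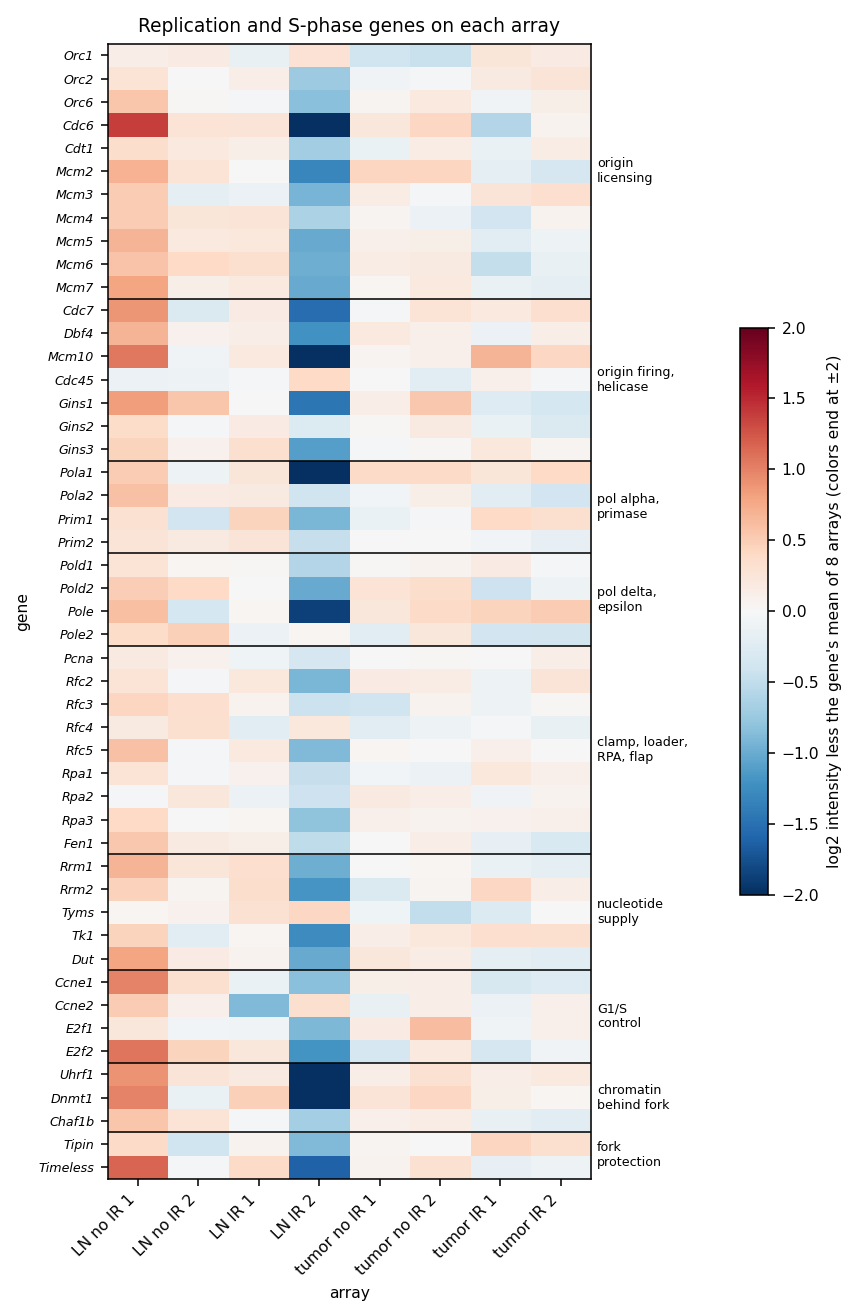
Log2 intensity of each of the 49 genes (rows, grouped by role) on each of the 8 arrays (columns), less the gene's mean over the 8 arrays, with red above and blue below that mean and colors ending at 2 either way. The column of LN with IR replicate 2 is blue for nearly all genes and that of LN without IR replicate 1 red, while the 4 tumor columns are pale.

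Between the arrays of LN with IR, replicate 2 was lower than replicate 1 for 43 of the 49 genes, with a median difference of -0.95. The gap was at least 1 in size for 25 genes (51.0%, against 8.54% of all genes), with 24 lower in replicate 2 and only *Ccne2* higher. Between the arrays of LN without IR, replicate 2 was again lower for 43 of the 49, with a median of -0.40, and 5 genes (10.2%, against 3.17% of all genes) differed by at least 1. These were *Timeless* (-1.19), *Cdc7* (-1.17), *Dnmt1* (-1.13), *Mcm10* (-1.12) and *Cdc6* (-1.12). In tumor none of the 49 differed by that much, against 0.852% of all genes without IR and 0.901% with it, and the medians were 0.05 and 0.01. The range over the 4 LN arrays was wider than that over the 4 tumor arrays for 46 of the 49 genes (median range 1.39 in LN and 0.37 in tumor).

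**Figure D2:**
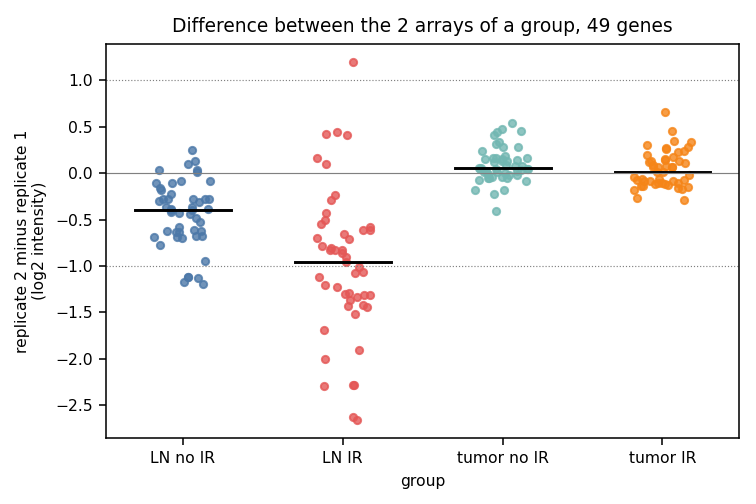
Replicate 2 minus replicate 1 (log2 intensity) for each of the 49 genes (points) in each group, with the median as a black bar and dotted lines at 1 and -1. The LN points lie mostly below 0 (medians -0.40 and -0.95), and the tumor points lie around 0, none beyond the dotted lines.

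The gaps in LN with IR were widest for genes of several roles. *Mcm10*, a scaffold for firing the helicase, stood at 8.94 and 6.28 on the 2 arrays. *Dnmt1*, the maintenance DNA methyltransferase, stood at 10.39 and 7.76, and its partner *Uhrf1*, which binds hemimethylated DNA, at 10.47 and 8.19. *Pola1*, the catalytic subunit of polymerase alpha, stood at 8.95 and 6.65, and the helicase loader *Cdc6* at 7.97 and 5.68. The last value lies just over the highest lower quartile of any array (5.59), below which a level is not shown to exceed background. All 392 values of the 49 genes were above that quartile.

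Mitosis genes moved the same way on the same arrays. The mean of 15 mitosis genes was 10.08 and 8.79 in LN without IR, 9.77 and 7.73 in LN with IR, and 9.60 to 9.77 on the tumor arrays. All 15 were lower in replicate 2 than in replicate 1 in both LN groups, with median differences of -0.82 and -2.05. *Mki67*, the proliferation antigen, stood at 11.89 and 7.92 in LN without IR, 11.10 and 8.21 in LN with IR, and 11.16 to 11.50 in tumor. The mean of 10 T cell identity genes was 11.78 and 11.95 in LN without IR and 11.62 and 11.26 in LN with IR. The 3' less 5' signal of the actin control was 0.06 on LN with IR replicate 2 and 0.02 to 0.27 on the other arrays, and that of the Gapdh control was -0.55 there and -0.44 to -0.23 elsewhere. The part of cell division, array quality or the batch of mice in the disagreement was not tested.

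**Figure D3:**
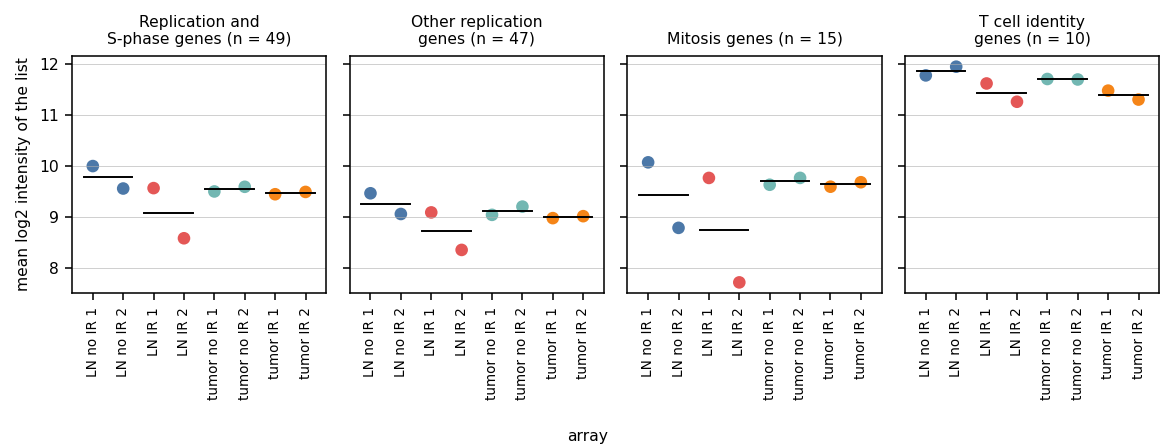
Level of 4 gene lists by array, as the mean log2 intensity of the listed genes (points, colored by group), with the mean of the 2 arrays of a group as a black bar. For the replication lists and the mitosis genes the second LN array of each pair lies below the first, lowest in LN with IR, while the T cell identity genes stay between 11.26 and 11.95.

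Because E2F factors drive most genes of this kind, the promoters of the set were searched for letters that members of the E2F family are known to bind. Of the 50 genes, 42 have a promoter window, 250 bases before to 50 after an annotated start, in the RefSeq annotation of GRCm38.p6. The letters TTTCCCGC, TTTCGCGC, TTTGCCGC or TTTGGCGC on either strand were in a window of 15 of the 42 (35.7%), against 2.6% of all 27025 genes with a window. They were found for 16 of 38 other replication genes (42.1%) and for 1 of 15 mitosis genes (6.67%). The letters TTTGAA, part of the cell cycle homology region known from genes of late cell cycle phases, were found for 9 of the 42 (21.4%) and 10 of the 15 mitosis genes (66.7%), against 20.2% of all genes. CCAAT was found for 25 of the 42 (59.5%) and 13 of the 15 (86.7%), against 41.1% of all genes. No E2F word contains either of the other motifs. The median difference between the arrays of LN with IR was -1.22 for the 15 genes with E2F letters and -0.85 for the 26 measured genes with a window but without them. With and without the letters, the medians were -0.49 and -0.41 for the gap in LN without IR, -0.81 and -0.65 for IR in LN, and -0.06 and -0.05 for IR in tumor. For tumor against LN they were -0.33 and -0.22 without IR and 0.30 and 0.37 with it. These matches are descriptions of letters, not shown sites, and their share describes the list, not how its genes moved on these arrays.

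The 3 genes with E2F letters and the widest gap between the arrays of LN with IR were *Dnmt1*, *Pola1* and *Cdc6*, and their windows are shown to place those letters, in capitals, 5′ to 3′ along the gene's strand. The *Dnmt1* window is at chr9:20952574-20952873 on the minus strand, belongs to 1 of 3 annotated starts and holds 2 matches. The *Pola1* window is at chrX:93632106-93632405 on the minus strand and the *Cdc6* window at chr11:98907901-98908200 on the plus strand, each with 1 match on the opposite strand.
Dnmt1: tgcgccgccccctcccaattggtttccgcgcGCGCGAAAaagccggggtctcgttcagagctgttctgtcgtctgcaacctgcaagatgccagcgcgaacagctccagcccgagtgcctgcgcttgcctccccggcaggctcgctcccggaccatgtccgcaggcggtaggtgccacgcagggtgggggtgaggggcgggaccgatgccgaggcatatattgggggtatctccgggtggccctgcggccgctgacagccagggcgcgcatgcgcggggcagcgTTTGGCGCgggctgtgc
Pola1: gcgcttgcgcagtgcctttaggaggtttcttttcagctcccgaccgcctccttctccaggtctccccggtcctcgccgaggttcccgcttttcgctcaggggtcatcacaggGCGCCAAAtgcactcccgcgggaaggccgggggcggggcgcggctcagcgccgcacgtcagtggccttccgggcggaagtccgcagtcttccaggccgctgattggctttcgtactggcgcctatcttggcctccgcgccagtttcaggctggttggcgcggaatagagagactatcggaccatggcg
Cdc6: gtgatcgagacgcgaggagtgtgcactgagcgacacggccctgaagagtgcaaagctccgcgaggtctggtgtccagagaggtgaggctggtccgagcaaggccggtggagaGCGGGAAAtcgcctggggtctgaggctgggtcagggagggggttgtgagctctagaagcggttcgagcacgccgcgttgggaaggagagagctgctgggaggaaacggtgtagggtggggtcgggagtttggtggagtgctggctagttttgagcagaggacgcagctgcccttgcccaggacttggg
The 3 genes differed by -2.63, -2.29 and -2.29 between the arrays of LN with IR. In tumor the same genes differed between replicates by at most 0.66, for *Cdc6* with IR (7.14 and 7.79).

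In LN T cells, 47 of the 49 genes were lower on average 5 h after IR and 2 were higher, with a median log2 difference of -0.65 against 0.01 over all genes. When arrays were scaled to the T cell identity genes, 38 were lower, 11 were higher and the median was -0.23 against 0.43 over all genes. No gene passed the test, which asked for an adjusted p under 0.1 by limma and a difference of 1 or more, either way, on the log2 scale. By that rule 0.264% of all genes were lower and 0.786% higher in LN after IR. At an unadjusted p under 0.05 there were 13 genes, all lower (26.5%, against 9.22% of all genes lower and 14.3% in either direction), and the smallest adjusted p was 0.161, for *Ccne1*. For 19 genes (38.8%, against 19.5% of all genes) both arrays with IR lay below both arrays without it, and for 2, *Cdc45* and *Tyms* (4.08%, against 21.8%), both lay above.

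The genes of origin licensing were all 11 lower in LN after IR, by a median of -0.73. *Cdc6* stood at 9.11 and 7.99 without IR and at 7.97 and 5.68 with it, so the groups were only just apart (log2 fold change -1.72 ± 0.71 SE, limma adjusted p = 0.33). *Mcm2*, a helicase subunit, stood at 10.49 and 10.06 without IR and at 9.79 and 8.48 with it (-1.14 ± 0.39, adjusted p = 0.259), and the groups did not overlap. *Mcm5*, another subunit of the same ring, stood at 12.53 and 12.04 against 12.05 and 10.83 (-0.84 ± 0.37), and the groups overlapped. *Orc1*, the ATPase subunit of the origin recognition complex, barely differed (-0.08 ± 0.18).

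Among the 7 genes of origin firing and the active helicase the median was -0.92, and *Cdc45* alone was higher (0.29 ± 0.18). Its other probe set, about as bright, was lower, at 8.04 and 7.28 without IR and 7.69 and 6.81 with it (-0.41). *Gins1*, a subunit of the GINS ring, stood at 9.19 and 8.91 without IR and at 8.35 and 6.91 with it (-1.41 ± 0.42, adjusted p = 0.214). *Mcm10* stood at 9.80 and 8.67 against 8.94 and 6.28 (-1.62 ± 0.78, adjusted p = 0.388). *Cdc7*, the kinase that triggers origin firing, stood at 9.19 and 8.02 against 8.47 and 6.78 (-0.97 ± 0.57), and its activator *Dbf4* at 9.85 and 9.26 against 9.30 and 7.96 (-0.92 ± 0.41). The other, dimmer probe sets of *Cdc7* and *Dbf4* gave -0.0021 and 0.13, while those of *Gins1* (-0.64) and *Mcm10* (-0.81 and -1.24) were lower. In *Gins1* the groups were apart, and in *Mcm10*, *Cdc7* and *Dbf4* replicate 1 with IR lay within the range of the arrays without it.

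The polymerases were lower too, each on average by its brightest probe set. *Pola1* stood at 9.22 and 8.60 without IR and at 8.95 and 6.65 with it (-1.11 ± 0.64), and the medians were -0.40 for the 4 genes of polymerase alpha and primase and -0.70 for the 4 of polymerases delta and epsilon. *Pole*, the catalytic subunit of the leading-strand polymerase, stood at 9.03 and 8.08 against 8.48 and 6.57 (-1.03 ± 0.58). *Pold2*, a subunit of the lagging-strand polymerase, stood at 9.41 and 9.31 against 8.93 and 7.91 (-0.94 ± 0.31, adjusted p = 0.247), with no overlap. Among the dimmer probe sets, that of *Pole2* was higher (0.43), and those of *Pola2* (0.32 and -0.02) and *Prim2* (0.18 and -0.36) disagreed. Those of *Pola1* (-0.06), *Prim1* (-0.25) and *Pold1* (-0.89) were lower.

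The clamp *Pcna*, its loaders, the single-strand binding proteins and the flap nuclease *Fen1* were lower in 9 of 9 by their brightest probe sets, with differences of -0.62 (*Rfc5*, a loader subunit) to -0.25. Other probe sets gave larger differences for *Rfc3* (-1.11), *Rfc4* (-1.03), *Rpa2* (-0.88) and *Fen1* (-0.87). *Pcna* stood at 12.78 and 12.70 without IR and at 12.51 and 12.27 with it (-0.35 ± 0.15, adjusted p = 0.343). *Fen1* stood at 12.25 and 11.88 against 11.82 and 11.20 (-0.56 ± 0.23). Both genes were lower in each array with IR than in each without. In nucleotide supply the largest difference was that of *Dut*, the dUTPase (11.22 and 10.60 against 10.51 and 9.43, -0.94 ± 0.35). *Rrm1* and *Rrm2*, the subunits of ribonucleotide reductase, differed by -0.77 ± 0.39 and -0.67 ± 0.45, and *Tk1*, thymidine kinase, by -0.72 ± 0.41. *Tyms*, thymidylate synthase, went the other way (0.30 ± 0.19), while its dimmer probe sets gave -0.14, -0.21 and 0.09.

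The G1/S regulators included the member with the smallest p. *Ccne1*, encoding cyclin E1, stood at 10.41 and 9.74 without IR and at 9.28 and 8.58 with it (-1.14 ± 0.29, adjusted p = 0.161), without overlap. Its other, dimmer probe set gave -0.55, without overlap either. *E2f2*, an activating E2F factor, stood at 9.43 and 8.81 against 8.59 and 7.16 (-1.24 ± 0.46, adjusted p = 0.289), also without overlap. *Ccne2*, encoding cyclin E2, stood at 9.36 and 8.97 against 7.98 and 9.18, and here it was replicate 1 that was low. *Uhrf1* stood at 11.19 and 10.56 against 10.47 and 8.19 (-1.54 ± 0.64, adjusted p = 0.332) and *Chaf1b*, a subunit of the chromatin assembly factor, at 8.32 and 8.04 against 7.74 and 7.09 (-0.77 ± 0.23, adjusted p = 0.211), both with no overlap. *Timeless*, a fork protection protein, stood at 9.55 and 8.36 against 8.78 and 6.78 (-1.18 ± 0.63), and its partner *Tipin* differed by -0.39 ± 0.35.

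The calls in LN turned on which array with IR was used. Without LN with IR replicate 1, 28 genes fell (57.1%, against 7.37% of all genes) and the median was -1.10. Without replicate 2, 1 gene fell, *Ccne2* (-1.19, adjusted p = 0.0917, 2.04% of the set against 0.214% of all genes), and the median was -0.18, with 39 of 49 still lower. In each of these fits the remaining array is assumed to vary like those of the other groups. *Pola1* changed sign between them, at -2.25 without replicate 1 and 0.04 without replicate 2, as did *Dnmt1*, at -2.57 and 0.05. *Prim1* changed sign by more, at -0.88 and 0.49, and *Gins3*, *Prim2*, *Rfc2*, *Rrm2* and *Tipin* changed it in the same direction. *Orc1* (0.15 and -0.30) and *Ccne2* (0.01 and -1.19) changed sign the other way. Without replicate 2 the differences were small for *Mcm10* (-0.29), *Pole* (-0.08), *Cdc7* (-0.13), *Timeless* (-0.18) and *Tk1* (-0.07). *Ccne1* stayed lower in both, at -1.49 and -0.79, and so did *Cdc6*, at -2.86 and -0.58, but neither passed without replicate 2. The robust fit of limma, which the study's methods name, called 5 genes lower with all arrays (10.2%, against 1.4% of all genes), namely *Mcm2*, *Gins1*, *Ccne1*, *E2f2* and *Uhrf1*. It used the same arrays and had the median of the least squares fit (-0.65), with the same 47 genes lower and 2 higher.

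**Figure D4:**
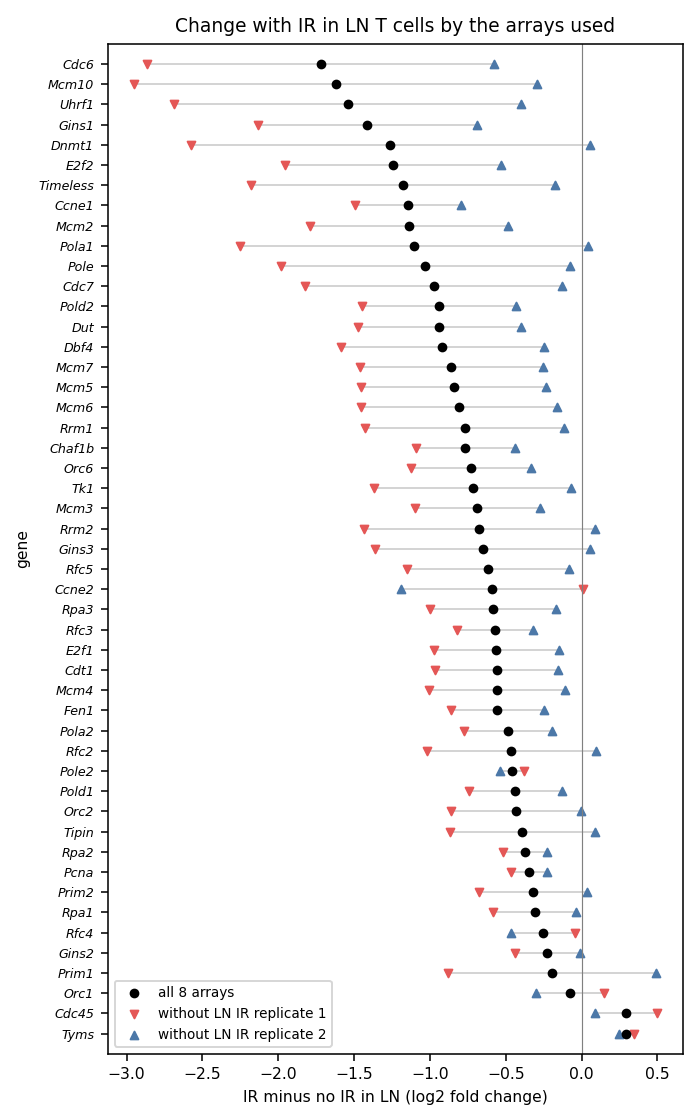
Log2 fold change with IR in LN T cells for each of the 49 genes (rows), from all 8 arrays (black circles), without LN with IR replicate 1 (red, pointing down) and without LN with IR replicate 2 (blue, pointing up). The median is -0.65 with all arrays, -1.10 without replicate 1 and -0.18 without replicate 2, and *Ccne2* is the gene furthest in the opposite order.

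In tumor T cells, the same dose left the set near its level without IR, with 28 genes lower, 21 higher and a median of -0.08 against 0.09 over all genes. The median changed sign with the scaling, to 0.03 after cyclic loess and to 0.23 when arrays were scaled to the T cell identity genes, which moved the median of all genes to 0.40. No gene passed (0.0055% of all genes were lower and 0.0934% higher), the robust fit called none, and at an unadjusted p under 0.05 there was only *Orc1*, higher (2.04%, against 16.6% of all genes in either direction). The SE and p-values came from a spread pooled over all 8 arrays, LN included, so they do not measure the spread of the tumor arrays alone. For *Uhrf1* the SE was 0.64 in LN and in tumor. Its SDs within groups were 0.44 and 1.62 in LN without and with IR, and 0.12 and 0.05 in tumor. A fit of only the 2 tumor groups called no gene of the set either. Arrays were close here, so small differences separated the groups. For 20 genes (40.8%, against 26% of all genes) both arrays with IR lay below both without, and for 11 (22.4%, against 41.4%) above.

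The lower genes in tumor included helicase subunits. *Mcm2* stood at 10.22 and 10.23 without IR and at 9.60 and 9.46 with it (-0.69 ± 0.39, limma adjusted p = 0.417). *Gins1* stood at 8.49 and 8.90 against 8.09 and 8.00 (-0.65 ± 0.42), and *Pold2* at 9.19 and 9.27 against 8.51 and 8.81 (-0.57 ± 0.31). *Ccne1* stood at 9.54 and 9.55 against 9.09 and 9.16 (-0.42 ± 0.29, adjusted p = 0.489), and its other, dimmer probe set gave -0.09. *Fen1* (-0.30 ± 0.23) and *Chaf1b* (-0.31 ± 0.23) were lower by less, and both came close to 0 under the scaling to T cell identity genes (0.0061 and 0.0053). In each of these 6 genes the groups did not overlap.

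The higher genes in tumor included *Orc1*, at 6.93 and 6.89 without IR and 7.57 and 7.48 with it (0.62 ± 0.18, adjusted p = 0.287), and a few of the primase and nucleotide genes. The other, dimmer probe set of *Orc1* gave -0.05. *Prim1*, the catalytic primase subunit, stood at 9.77 and 9.86 against 10.31 and 10.24 (0.46 ± 0.43), and *Rrm2* at 10.89 and 11.22 against 11.58 and 11.30 (0.39 ± 0.45). *Tipin* stood at 10.15 and 10.10 against 10.54 and 10.42 (0.35 ± 0.35). Both arrays with IR were above both without it in these 4 genes as well. *Pcna* stood at 12.59 and 12.63 against 12.61 and 12.73 (0.06 ± 0.15), and *Uhrf1* at 10.43 and 10.60 against 10.43 and 10.49 (-0.05 ± 0.64).

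Macrophage genes moved with the tumor groups, at 10.54 and 11.23 without IR and 9.09 and 10.54 with it, and their part in the values of the set was not tested.

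Without IR and with all arrays, tumor T cells had slightly less signal than LN T cells, with 42 of the 49 genes lower, 7 higher and a median of -0.26 against -0.09 over all genes. When arrays were scaled to the T cell identity genes, 32 were lower, 17 were higher and the median was -0.10 against 0.07 over all genes. No gene passed, and the robust fit called none. By the same rule 1.04% of all genes were lower in tumor and 4.5% higher. At an unadjusted p under 0.05 there were *Orc1* and *Rfc3*, both lower (4.08%, against 17.7% of all genes in either direction). Both tumor arrays lay below both LN arrays for 23 genes (46.9%, against 35.2% of all genes) and above them for none (against 21.3%). The difference from all genes rested on LN without IR replicate 1. Without that array the median was -0.045 against -0.065 over all genes, with 27 of 49 genes lower and 22 higher. Without replicate 2 it was -0.43 against -0.095 over all genes, with 47 lower.

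*Orc1* stood at 7.45 and 7.49 in LN and 6.93 and 6.89 in tumor (-0.57 ± 0.18, limma adjusted p = 0.144). *Rfc3*, a clamp loader subunit, stood at 8.53 and 8.43 against 7.69 and 8.17 (-0.55 ± 0.23). *E2f2* had the largest difference, 9.43 and 8.81 against 8.03 and 8.57 (-0.82 ± 0.46, adjusted p = 0.426). *Rrm1* (-0.43 ± 0.39), *Pole2*, a subunit of polymerase epsilon (-0.42 ± 0.18), and *Pola2*, a subunit of polymerase alpha (-0.34 ± 0.24), were lower as well, and in all 6 genes the groups did not overlap. *Mcm10* (-0.41 ± 0.78), *Timeless* (-0.37 ± 0.63) and *Uhrf1* (-0.36 ± 0.64) were lower in tumor on average, with overlap between the groups. The difference for *Mcm10* and *Timeless* was 0.15 and 0.23 without LN replicate 1. *E2f1* was higher in tumor, at 7.76 and 7.48 against 7.70 and 8.15 (0.31 ± 0.29), with overlap.

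With IR, the order of the tissues was turned, with 41 genes higher in tumor, 8 lower and a median of 0.35 against 0.06 over all genes. No gene passed, against 4.8% of all genes higher and 2% lower. At an unadjusted p under 0.05, *Mcm3* and *Pole* were higher and *Tyms* lower (6.12%, against 21.7% of all genes in either direction). For 11 genes (22.4%, against 30.1% of all genes) both tumor arrays lay above both LN arrays, and for 2, *Pole2* and *Tyms* (4.08%, against 20%), below. The 2 comparisons of tissue share no array.

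This comparison turned on the same array. Without LN with IR replicate 2 the median was -0.13, with 30 genes lower in tumor and 19 higher, and no gene passed. Without replicate 1 the median was 0.86 and 18 genes were higher and passed (36.7%, against 9.79% of all genes). The robust fit with all arrays called 4 genes higher (8.16%, against 5.74% of all genes), *Mcm10*, *Pola1*, *Pole* and *Uhrf1*. Its median was that of the least squares fit (0.35).

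*Mcm10* had the largest difference, with 8.94 and 6.28 in LN and 9.43 and 9.16 in tumor (1.68 ± 0.78, limma adjusted p = 0.246). *Pole* stood at 8.48 and 6.57 against 8.89 and 8.95 (1.39 ± 0.58, adjusted p = 0.202), and *Mcm3*, a helicase subunit, at 11.14 and 10.32 against 11.52 and 11.58 (0.82 ± 0.32, adjusted p = 0.174). In these 3 genes tumor lay above LN on both arrays by the probe set used. The other probe sets of *Mcm3* gave -0.19, -0.17, 0.17 and 0.30. *Pola1* stood at 8.95 and 6.65 against 8.94 and 9.10 (1.22 ± 0.64), and *Uhrf1* at 10.47 and 8.19 against 10.43 and 10.49 (1.13 ± 0.64), so that LN replicate 1 lay within the range of the tumor arrays and replicate 2 below it. *Tk1* (9.56 and 8.26 against 9.85 and 9.83, 0.93 ± 0.41), *Tipin* (0.78 ± 0.35) and *Rpa3*, the small subunit of the single-strand binding protein (0.48 ± 0.28), were higher without overlap, and *E2f1* with overlap (0.49 ± 0.29).

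On the test of whether IR acted differently in the tissues, 46 of the 49 genes had a less negative or more positive IR effect in tumor than in LN, with a median difference of 0.59 against 0.12 over all genes. Without LN with IR replicate 2 the median was close to that of all genes (0.11 against 0.07), with 31 genes higher and 18 lower. No gene passed, in either direction, as was the case for all genes (0% and 0%), and the robust fit called no member. At an unadjusted p under 0.05 there was only *Orc1* (0.70 ± 0.25, limma adjusted p = 0.779), which is 2.04% of the set against 5.63% of all genes in either direction. By the other probe set of *Orc1* the difference was 0.25. The largest difference was that of *Mcm10* (2.09 ± 1.10, adjusted p = 0.782). Without LN with IR replicate 1, 16 genes passed, all with the higher effect in tumor (32.7%, against 3.01% of all genes), and without replicate 2 none passed and the median was 0.11.

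Where a gene has several probe sets, they can disagree. In 39 genes there were others beside the brightest, 58 in all, none of which passed in any of the 4 comparisons of groups. Of these, 47 had the sign of the brightest for IR in LN and 51 for tumor against LN without IR, but only 37 for IR in tumor and 37 for tumor against LN with IR. The gap between the LN arrays with IR was seen in most other probe sets too. Of the 58 others, 49 were lower in replicate 2, 23 of them by at least 1. By the brightest probe sets 43 of the 49 genes were lower, 24 of them by at least 1. In 6 genes another probe set was lower by at least 1 where the brightest was not. *Rfc3* is such a gene, at 8.16 and 7.66 by the brightest probe set, and at 8.20 and 6.43 by the other. *Rfc4*, another loader subunit, stood at 9.16 and 9.58 by the brightest and at 8.86 and 7.80 by the other. The reverse occurred as well, with a gap of at least 1 by the brightest probe set only. Examples are *Dbf4* (-1.34 by the brightest and 0.51 by the other) and *Pola1* (-2.29 and -0.28).

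*Mcm3* is read by 5 probe sets, and IR in tumor divided them. The brightest stood at 11.41 and 11.23 without IR and 11.52 and 11.58 with it (0.23), while the other 4 were lower with IR (-0.65, -0.62, -0.39 and -0.29). *Mcm10* was divided likewise, with 0.47 by the brightest and -0.57 and -0.14 by the others. For tumor against LN with IR, the 3 probe sets of *Mcm10* gave 1.68, -0.16 and 0.56. In LN with IR all probe sets of both genes were lower in replicate 2 than in replicate 1. Probe sets of 1 gene can read different transcript ends, and which of them follows the gene's main transcript was not tested.

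**Figure D5:**
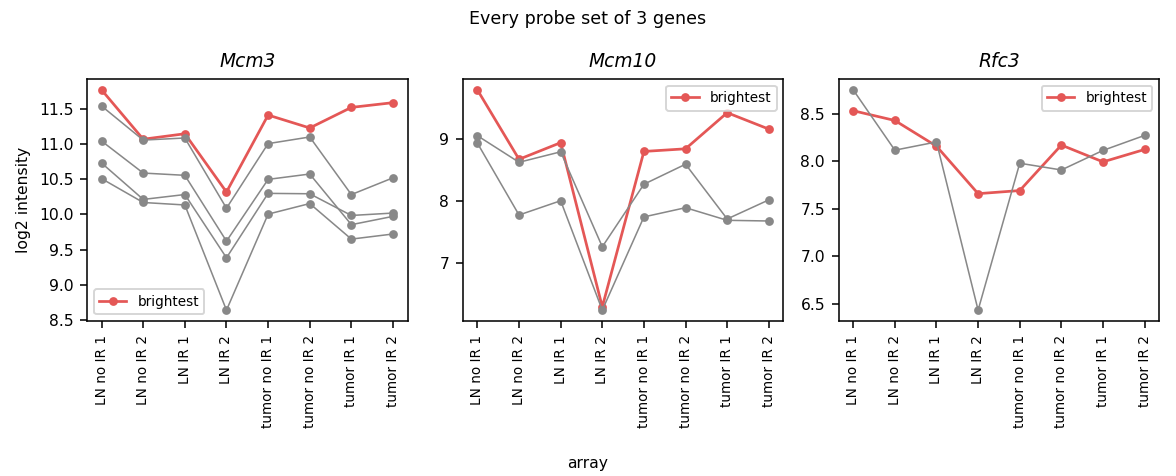
Log2 intensity on the 8 arrays of every probe set of *Mcm3* (5), *Mcm10* (3) and *Rfc3* (2), with the brightest in red and the others in grey, joined by lines for reading only. All dip at LN with IR replicate 2. For *Mcm3* and *Mcm10* the brightest is higher in tumor with IR than in tumor without it, while the others are not.

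Of 49 further genes of licensing, firing, the fork, nucleotides and S-phase cyclins, 47 were measured, and none passed for IR in LN, IR in tumor, tumor against LN without IR or the difference of the IR effects. Their median was -0.46 for IR in LN, with 41 lower and 6 higher, and -0.03 for IR in tumor. With IR, 2 of the 47 differed between the tissues, 1 higher and 1 lower in tumor, against 4.8% of all genes higher and 2% lower. *E2f3*, an activating E2F factor, was higher in tumor, at 6.78 and 5.61 in LN and 7.77 and 7.76 in tumor (1.57 ± 0.42, limma adjusted p = 0.0687). Without LN with IR replicate 2 it did not pass (0.99, adjusted p = 0.159). *Samhd1*, which breaks down dNTPs and is abundant in myeloid cells, was lower in tumor, at 11.65 and 11.49 against 10.03 and 9.78 (-1.66 ± 0.20, adjusted p = 0.00457). It passed when replicate 1 or replicate 2 of LN with IR was left out (-1.58 and -1.74, respectively). *Ccna2*, encoding cyclin A2, stood at 12.43 and 11.99 in LN without IR, 12.24 and 10.71 in LN with IR and at most 12.16 in tumor. Of 16 mitosis genes 15 were measured and none passed in any comparison, with medians of -0.64 for IR in LN and -0.10 for IR in tumor.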

How the data were processed

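RNA of sorted CD8+ T cells was measured on 8 Affymetrix whole-genome mouse arrays. The authors processed the scans with RMA (version not given in the sources used here), which corrects background, equalizes the arrays' distributions and summarizes probe sets, and deposited log2 values, used as deposited. RMA makes array totals alike, so a shift shared by all genes would not be seen. Of 45101 probe sets, 34945 name 1 gene, 932 several and 9160 none, and 64 are controls. Names came from the array annotation and, for 34741 probe sets, the RefSeq symbol of the same Entrez ID.

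limma 3.58.1 in R 4.3.3 fitted 4 group means by least squares over all 8 arrays (4 residual and 3.13 prior degrees of freedom). Each gene thus has 1 estimate of spread for all 4 groups, and its SE is the same in each comparison of 2 groups. P-values, two-sided, were adjusted by Benjamini-Hochberg over 35877 annotated probe sets, and a gene passed at an adjusted p under 0.1 with a difference of 1 or more, either way, on the log2 scale. These thresholds are those of the study's methods, which used a robust fit, kept here as an alternative. The fit was tested on simulated arrays. The number of arrays, 2 a group, limits the precision, and the mice were pooled.

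The genes named are those with the largest difference in each role and comparison, the brightest of each role, those with the widest gaps between LN replicates, and checks of the sort and of IR. Others, such as *Rfc4* or *Dnmt1* in the fits with arrays left out, were chosen after their values were seen. Members and lists were chosen with earlier results of these data known. Alternatives were the robust fit, array weights, replicate blocks, only the groups compared, other thresholds, other probe set rules, scaling to T cell identity genes, cyclic loess, a filter on dim probe sets and leaving out arrays. Promoter letters were searched in Python 3.11.15.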

Additional observations from a re-analysis of the deposited data

How the results depend on the processing

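With all arrays and the least squares fit no gene of the set passed in any of the 5 comparisons. Of 19 planned and 4 later alternatives, array weights, the replicate block, fits of only the groups compared (not run for the difference of the IR effects), no fold limit, an adjusted p under 0.05, the probe set rules, scaling to T cell identity genes, cyclic loess, the filter on dim probe sets and leaving out any array but those of LN with IR also gave 0. The robust fit gave 4 for tumor against LN with IR and 5 for IR in LN. Leaving out 1 array gave 0 to 28 for IR in LN, 0 to 18 for tumor against LN with IR and 0 to 16 for the difference of the IR effects, with the highest counts without LN with IR replicate 1.

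Replicate numbers were not taken as pairs. Over all genes the differences between replicates correlated at 0.43 between the LN groups and at 0.43 between the tumor groups, but at -0.14 to 0.07 across tissues. The replicate block over all groups called 0 in each comparison, and so did the crossed pairing. With a replicate block within each tissue, chosen after seeing the data, 9 genes were lower for IR in LN (1.46% of all genes): *Cdc6*, *Mcm2*, *Mcm10*, *Gins1*, *Pole*, *Ccne1*, *E2f2*, *Uhrf1* and *Timeless*. Among arrays of the same number in LN, 46 and 45 of 49 genes were lower with IR. Also chosen later, leaving out both LN arrays numbered 1 gave 18 for tumor against LN with IR, 22 for IR in LN and 15 for the difference of the effects (10.1%, 6.29% and 3.41% of all genes), and leaving out both numbered 2 gave 2 for tumor against LN without IR and 2 for IR in LN (1.48% and 0.599%).

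Of 37 differences of single genes, these changed sign. For tumor against LN without IR, *Pola2* was 0.092 by its most variable probe set, and *Mcm10* and *Timeless* were 0.15 and 0.23 without LN without IR replicate 1, also with both LN arrays numbered 1 left out, and -0.98 and -0.97 without replicate 2. For tumor against LN with IR, *Mcm3* was -0.086 by the median over probe sets, and *Uhrf1* was -0.013 without LN with IR replicate 2, also with both LN arrays numbered 2 left out, and 2.27 without replicate 1. For IR in LN, *Pola1* was 0.040 without LN with IR replicate 2 and -2.25 without replicate 1. For IR in tumor, *Fen1* and *Chaf1b* were 0.0061 and 0.0053 under the scaling to T cell identity genes. Beyond those due to the arrays used, the cause was not tested.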
